A study of Mus musculus with 2 samples.

Results

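The 10 genes Arg1, Nos2, Mrc1, Stab1, Apoe, Trem2, Spp1, Mmp12, Igf1 and Vcam1, of 31053 genes in the files, were followed in macrophages and monocytes from mouse tumors. They were listed as genes that mark tumor macrophage polarization and lipid handling. The list names genes and sets no threshold on a value, but it was drawn up with earlier results of these data known, as were the gene lists used beside it. B16-OVA, a mouse melanoma line that carries ovalbumin, was grown in C57BL/6J mice, and the methods of the study use males in general. Droplet single-cell RNA sequencing was run on tumor-infiltrating immune cells (TIIs) sorted as CD45.2+ and free of DAPI, the dye that marks dead cells. The control library came from mice given PBS and the creatine library from mice given 10.5 mg of creatine a day into the peritoneum. Both hold 4 tumors combined at day 14 and 10000 loaded cells, although another method section gives an earlier harvest and a figure legend another number of mice. The control was taken as such from its title and treatment label, since its protocol label also describes the creatine injection.

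Macrophages take on different programs in a tumor. Nos2 makes nitric oxide from arginine and is the textbook gene of inflammatory activation, whereas Arg1 breaks arginine down to ornithine and urea and, with the mannose receptor Mrc1, is a textbook gene of alternative activation. Apoe carries lipid out of cells and Trem2 is a receptor for lipids and lipoproteins, and both mark lipid-laden macrophages. Spp1 (osteopontin) and Mmp12 (macrophage elastase) act on the matrix around the cell, Stab1 is a scavenger receptor, Igf1 is a growth factor and Vcam1 is an adhesion molecule. Macrophages that arise from blood monocytes can hold these programs in part, so that a level in a mixed pool depends on how many cells of each kind it holds.

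Macrophages were therefore gated apart from monocytes, by marker UMIs (unique molecular identifiers, each standing for 1 captured mRNA molecule). Macrophages had at least 1 UMI of Csf1r, the receptor for the macrophage growth factor, and at least 10 UMIs of C1qa, C1qb and C1qc per 10000. Monocytes had Csf1r and Lyz2 with less than 5 of C1q per 10000, and were split by Ly6c2, Vcan, Ccr2 and F13a1 (classical) and by Ace, Adgre4 and Treml4 (nonclassical). Paired values give the control library first and the creatine library ("under creatine") second. The macrophage gate held 942 control and 357 creatine cells (13.01% and 5.73% of cells), the classical gate 347 and 475 (4.79% and 7.63%), and the nonclassical gate 143 and 367 (1.98% and 5.89%). A median macrophage held 15049 UMIs in the control and 22715 under creatine, a classical monocyte 8486 and 9388, and a nonclassical monocyte 6674 and 8949. Markers that the gates did not use were in part where the names place them. Mertk, a receptor for dying cells, stood at 76.7 and 69.7 CPM (UMIs of the gene per 1000000 UMIs of the gate in that library) in macrophages, 30.0 and 6.24 in classical monocytes and 2.09 and 2.35 in nonclassical monocytes. Nr4a1, which nonclassical monocytes need, stood at 513 and 445 CPM in their gate against 36.2 and 113 in the classical gate. The 8 classical markers summed to 7015 and 7968 CPM in the nonclassical gate and to 4133 and 7489 in the classical gate, and did not part one kind of monocyte from the other, whereas the 8 nonclassical markers summed to 2859 and 2571 CPM in the nonclassical and 407 and 642 in the classical gate.

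Each group is 1 library, so no difference between the groups could be tested. Levels carry exact 95% Poisson intervals, ratios an exact interval that conditions on the sum of the counts, and shares Clopper-Pearson intervals, all of which cover counting error only. Log2 ratios are of creatine over control CPM. A member counts as higher or lower when its CPM differs by 1.5-fold and the gate holds at least 50 of its UMIs over both libraries. The libraries kept 7241 and 6229 cells, and 29 of the kept barcodes occurred in both. T cells, which carry no Csf1r by their gate, gave the level of free RNA for the members other than Spp1, and their median cell held 8142 and 9323 UMIs. For Spp1 they could not serve, since they stood above both kinds of monocyte of the creatine library. In them C1qa stood at 26.2 and 15.6 CPM, beside 33.1 and 15.3 in classical monocytes. In the control, NK cells stood above T cells for each member, as for Mmp12 (18.7 against 4.93 CPM) and Mrc1 (17.3 against 9.66). T cells are thus the lower of these references there. All values below describe these libraries, and treatment, pool and library cannot be told apart.

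Most UMIs of 9 of the 10 genes were held by macrophages, in both libraries. Their share ran from 56.0% (Arg1) to 84.2% (Vcam1) in the control and from 58.5% (Apoe) to 91.5% (Igf1) in the creatine library. Spp1 was the exception, with 37.7% and 27.9% in macrophages. Classical monocytes held 12.9% of Arg1 in the control and 3.87% under creatine, and 9.38% against 0.532% of Spp1. Nonclassical monocytes held 3.01% and 14.7% of Apoe, 1.19% and 4.32% of Trem2 and at most 0.513% of any other member. Cells outside these gates and the T and NK cell gates held 29.2% of Arg1 in the control and 8.43% under creatine, 33.5% and 18.4% of Mmp12, and 25.9% and 9.20% of Spp1. For the other 7 genes this share was between 12.05% and 22.1% in the control and between 4.90% and 21.8% under creatine. It includes the cells gated as dendritic, B, neutrophil and melanoma cells, and its part in the levels over all cells was not tested.

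**Figure D1:**
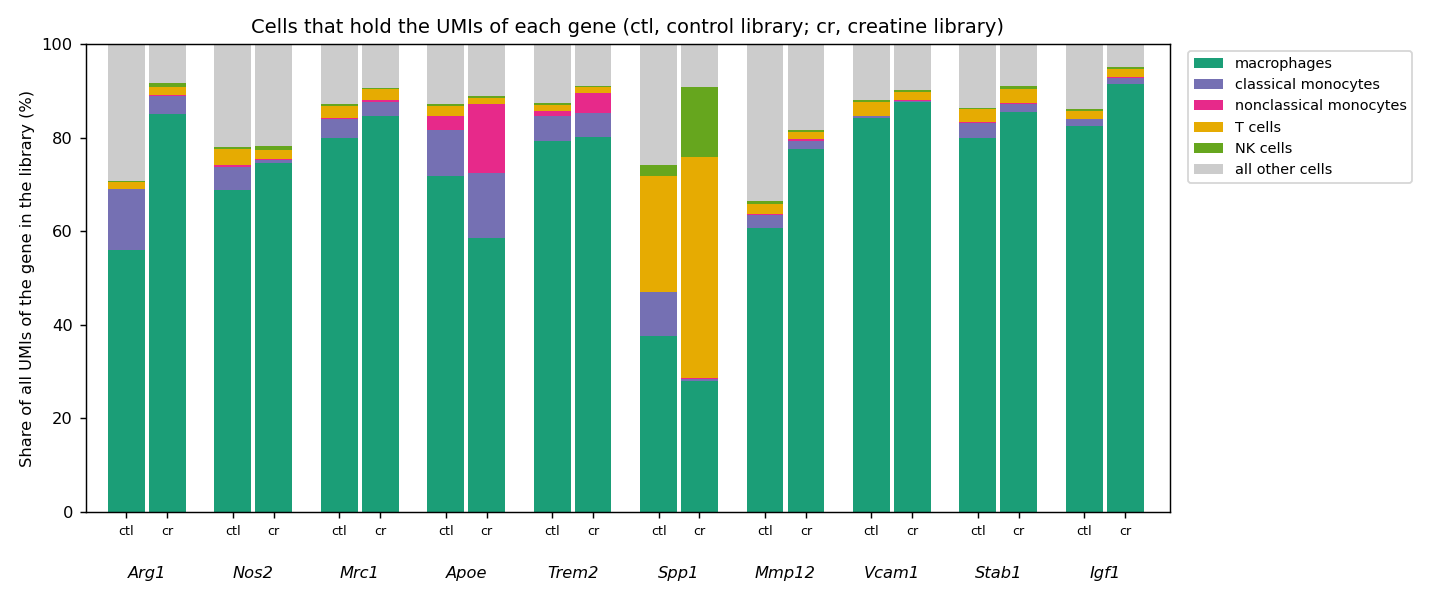
Share of all UMIs of each gene, in percent of the library, held by the gated cell types (stacked colors) in the control (ctl) and the creatine (cr) library. Macrophages hold over 50% of the UMIs of every gene except Spp1, of which T cells hold 24.7% in the control and 47.0% under creatine.

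In macrophages, Nos2 was the only member past 1.5-fold, and it was higher in the creatine library. Of the 10 members, 1 was higher and 0 were lower, where 2.65% of the 10402 genes measured were higher and 4.24% were lower. The median log2 ratio of the members was -0.05, and that of all genes was -0.02. Nos2 stood at 47.7 CPM (44.4 to 51.2) in the control and at 78.2 (72.5 to 84.2) under creatine, a log2 ratio of 0.71 (0.56 to 0.86). Arg1, which draws on the same arginine, stood at 258 CPM (250 to 266) and 221 (211 to 231), a log2 ratio of -0.22 (-0.30 to -0.14). Arg1 lies at chr10:24915221-24927484 on the minus strand and Nos2 at chr11:78920787-78960254 on the plus strand (GRCm38). Both enzymes sat in few cells. The 10% of macrophages richest in Nos2 held 100% of it in the control and 95.4% under creatine, and for Arg1 the shares were 88.1% and 91.5%. For Nos2, 10 of 942 control cells held 41.9% and 4 of 357 creatine cells 30.3%. The richest cell held 77 of 773 Nos2 UMIs in the control and 121 of 700 under creatine. The intervals take each UMI as independent and do not cover such clumping. At 4000 UMIs per cell, 4.79% of control macrophages (3.46 to 6.44) and 8.82% of creatine macrophages (6.03 to 12.4) had a Nos2 UMI, and 16.0% and 16.8% had one of Arg1. Without thinning these shares were 9.13% and 16.5% for Nos2 and 24.2% and 24.9% for Arg1. In T cells they were 1.02% and 0.571% for Nos2 and 2.87% and 1.14% for Arg1.

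The Arg1 ratio in macrophages turned with the choice of cells. It was 0.57 among the 468 control and 133 creatine macrophages without a UMI of Ly6c2, Vcan, Ace, Adgre4 and Treml4, and -0.65 among the 625 and 230 without a UMI of the lymphoid and dendritic genes used to leave out mixed cells. With the same weight for each cell it was -0.64. For Nos2 the first of these choices gave 0.33, short of 1.5-fold, and the second gave 1.19.

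Summed over the macrophage gate, the endocytic receptors and lipid genes differed by less than 1.5-fold between the libraries. With the same weight for each cell the Mrc1 ratio was -0.50, and the lowest C1q class, given below, held larger differences. Mrc1, which takes up mannose-bearing glycoproteins, stood at 718 CPM in the control and 589 under creatine (log2 ratio -0.29, -0.33 to -0.24). Stab1, which clears modified lipoproteins and other debris, stood at 324 and 312 CPM, and its interval of -0.12 to 0.01 included 0. Apoe stood at 5226 and 5068 CPM (-0.04, -0.06 to -0.03) and Trem2 at 422 and 447 (0.08, 0.03 to 0.14). Apoe, Mrc1 and Trem2 were spread over most macrophages. A Stab1 UMI was found in 44.0% and 41.5% of thinned macrophages, and in 63.1% and 61.9% without thinning. The richest 10% of cells held 26.98% and 31.03% of Apoe, 28.8% and 33.1% of Mrc1, 28.3% and 29.8% of Trem2 and 40.2% and 42.1% of Stab1. The share of thinned macrophages with an Mrc1 UMI was 74.8% (71.7 to 77.7) in the control and 65.0% (59.7 to 70.1) under creatine, in T cells without thinning 9.76% and 4.00%.

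Among the secreted and adhesion genes, Spp1 and Igf1 were nearer the upper threshold. Spp1 stood at 327.5 CPM (319 to 337) in the control and at 457 (443 to 471) under creatine, a log2 ratio of 0.48 (0.42 to 0.54). Igf1 stood at 96.8 CPM (92.0 to 102) and 131 (124 to 139), a log2 ratio of 0.44 (0.33 to 0.55). Neither reached 1.5-fold. Among the macrophages without UMIs of the monocyte genes Ly6c2, Vcan, Ace, Adgre4 and Treml4, Spp1 reached 1.02. Mmp12 stood at 318 and 254 CPM (log2 ratio -0.32) and Vcam1, which binds the integrin VLA-4 on leukocytes, at 249 and 210 (-0.24). Mmp12 was the most concentrated member after Nos2 in the control, since 10 of 942 control cells held 36.2% of its UMIs and 4 of 357 creatine cells 47.9%. Its ratio was -1.12 without any UMI of the exclusion genes and 0.44 without UMIs of the monocyte genes.

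**Figure D2:**
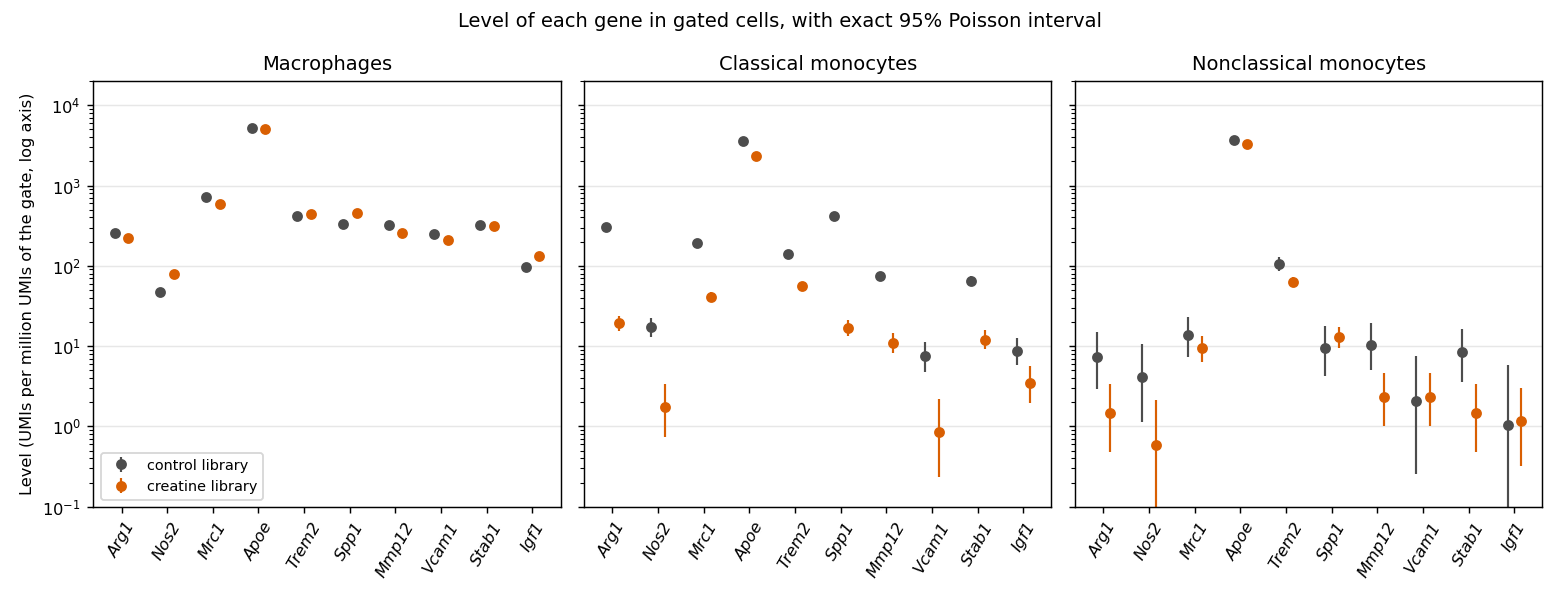
Level of each gene (CPM of the gate, log axis) in the control (grey) and the creatine library (orange), with exact 95% Poisson intervals, in macrophages, classical monocytes and nonclassical monocytes. The paired points lie close together in macrophages, where Nos2 goes from 47.7 to 78.2, and far apart in classical monocytes, where Arg1 goes from 301 to 19.4 and Spp1 from 413 to 16.8.

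Macrophages split by their C1q level gave other ratios than the whole gate. The 3 classes were of equal size over the cells of both libraries, with bounds at 70.7 and 124 C1q UMIs per 10000, and held 327 and 106, 322 and 111, and 293 and 140 control and creatine cells. In the lowest class, Nos2 stood at 63.5 CPM in the control and 178 under creatine, a log2 ratio of 1.49 (1.24 to 1.74). Arg1 went the other way there, from 358 to 173 CPM, a ratio of -1.05 (-1.25 to -0.86). Mrc1 (462 and 188 CPM), Trem2 (237 and 85.0) and Stab1 (127 and 53.5) were also lower in the creatine library in that class, with ratios of -1.30, -1.48 and -1.25. In the middle class, the ratios of all 10 genes lay between -0.35 and 0.51. In the highest class, Spp1 stood at 267 CPM in the control and 561 under creatine (1.07, 0.98 to 1.16), and Arg1 at 118 and 153 (0.37). Nos2 was higher in the creatine library in each class, although only the lowest passed 1.5-fold. Over all macrophages the monocyte marker Ly6c2 stood at 169 and 334 CPM. The other classical genes went the other way, F13a1 at 199 and 99.5, Ccr2 at 395 and 352 and Vcan at 18.6 and 14.2. All 4 summed to 782 and 799 CPM, and their part in these values was not tested.

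**Figure D3:**
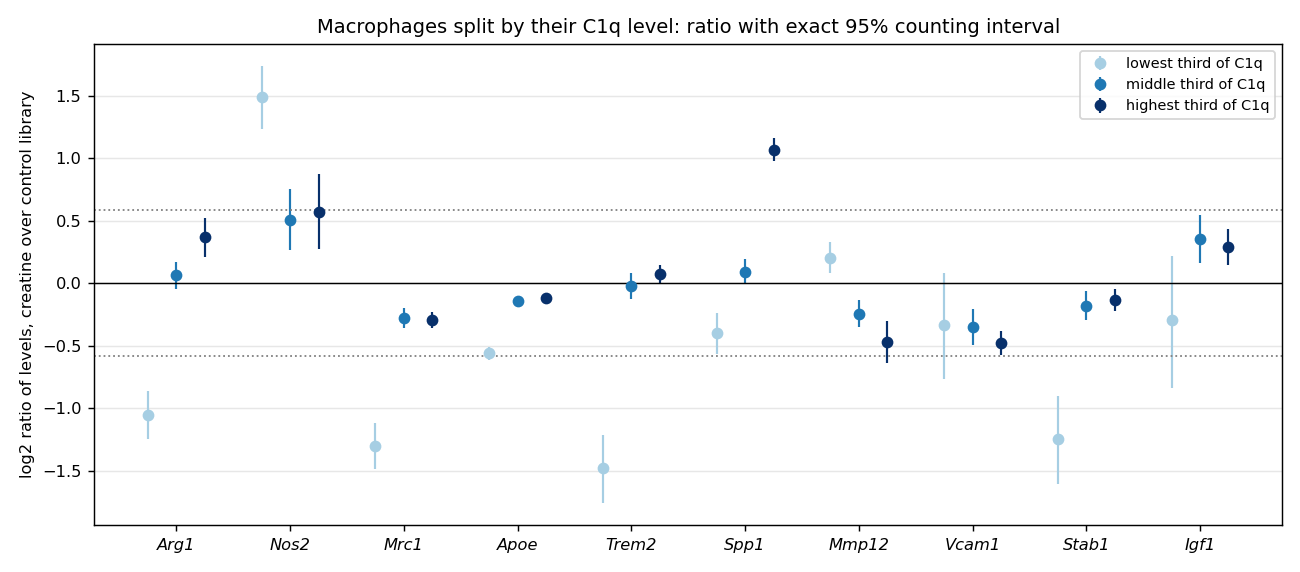
Log2 ratio of creatine over control level for each gene within the lowest, middle and highest of 3 equal classes of macrophages by C1q level (light to dark blue), with exact 95% counting intervals and dotted lines at 1.5-fold. In the lowest class Nos2 lies at 1.49 and Arg1, Mrc1, Trem2 and Stab1 between -1.05 and -1.48; in the highest class only Spp1, at 1.07, is past a line.

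In classical monocytes, all members that could be measured were lower in the creatine library. Vcam1 (24 and 4 UMIs) and Igf1 (28 and 16) had under 50 UMIs, and 8 of the other 8 members were lower past 1.5-fold, where 8.76% of the 8287 genes measured were lower and 9.16% were higher. Nos2 passed 50 UMIs only through the control library (55 and 8 UMIs), so the filter nearly fixed its call as lower. The other 7 held over 50 UMIs in each library. Without a C1q UMI, 6 of 7 measured members were lower, Apoe short of 1.5-fold and Nos2 under 50 UMIs. In those cells Arg1 (187 and 7 UMIs) and Stab1 (61 and 28) passed 50 UMIs only through the control library. That favors a call as lower. Over the whole gate, the median log2 ratio of the 8 members was -2.60, beside 0.02 for all genes. Arg1 stood at 301 CPM (282 to 320) in the control and at 19.4 (15.6 to 23.8) under creatine, 15.5-fold lower. Spp1 stood at 413 CPM (391 to 436) and 16.8 (13.3 to 21.0), 24.6-fold lower. Of all genes measured in this gate, 0.109% were at least 10-fold lower, and these 9 genes include both.

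The other members followed in the same direction. Nos2, low in both, stood at 17.2 CPM (12.9 to 22.3) and 1.72 (0.743 to 3.39), from 55 and 8 UMIs. Mmp12 stood at 74.3 and 10.97 CPM, Stab1 at 65.2 and 12.1, and Mrc1 at 190 and 41.1, which are 6.77-fold, 5.41-fold and 4.63-fold lower. In this gate 0.531% of genes were at least 4-fold lower. The lipid genes showed smaller differences, with Trem2 at 139 and 56.2 CPM (2.48-fold) and Apoe at 3620 and 2334 CPM (1.55-fold). In T cells of the control and creatine libraries Nos2 stood at 0.986 and 0.449 CPM, Mmp12 at 4.93 and 1.21 and Mrc1 at 9.66 and 3.56, below the monocyte level in each library. NK cells were also below it, with Nos2 at 1.04 and 1.11, Mmp12 at 18.7 and 1.80 and Mrc1 at 17.3 and 3.05. Their interval for Nos2 under creatine (0.479 to 2.18) held the monocyte value of 1.72. Spp1 went the other way under creatine, where classical monocytes, at 16.8 CPM, were below the 182 CPM of T cells. Vcam1 in creatine monocytes, at 0.861 CPM, was at the 0.871 of T cells.

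Few monocytes held much of Arg1 and Spp1. Of 347 control cells, 4 held 47.9% of the Arg1 UMIs and 54.5% of the Spp1 UMIs, and of 475 creatine cells, 5 held 91.1% and 51.3%. Arg1 UMIs were found in 13.5% of control and 2.74% of creatine monocytes (11.4% and 0.662% after thinning), beside 2.87% and 1.14% of T cells. Spp1 UMIs were found in 24.2% and 6.95% (18.9% and 3.75% after thinning), beside 19.6% and 20.3% of T cells. Without the 1% of cells richest in the gene, the Arg1 ratio moved from -3.96 to -6.51 and that of Mmp12 from -2.76 to -4.23. This cut took 47.9% of the Arg1 UMIs in the control and 91.1% under creatine, and 78.6% and 92.2% of those of Mmp12. It fell harder on the creatine library, so these shifts follow from the setting and are no further sign of a difference.

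As a sum, macrophage genes other than the members also stood higher in the control monocytes. The 10 macrophage markers not used in the gate summed to 3081 CPM in the control and 2285 under creatine, C1q to 98.9 and 52.9, and the classical markers to 4133 and 7489. Of the genes listed as macrophage markers, Cx3cr1 (71.8 and 272 CPM) and Trf (79.0 and 147 CPM) went against the sum. Neither marked macrophages here. Cx3cr1 stood at 30.6 and 27.7 CPM in macrophages and 470 and 555.5 in nonclassical monocytes, and Trf at 74.1 and 67.9 against 99.2 and 146.6. Lyz2 stood at 12765 and 22373 CPM. Of the classical genes of the gate, Ly6c2 stood at 857 and 1624, Ccr2 at 1545 and 1872 and F13a1 at 430 and 602. Vcan went the other way, at 220 and 118 CPM. The C1q genes stood not far above T cells, the reference for free RNA. C1qa stood at 33.1 and 15.3 CPM in classical monocytes and 26.2 and 15.6 in T cells. C1qb stood at 40.3 and 22.4 against 27.03 and 15.02, and C1qc at 25.6 and 15.3 against 24.7 and 12.4. How much of the C1q of monocytes was free RNA was not tested, so the C1q classes below do not measure likeness to macrophages. The 10 melanoma genes summed to 182 and 58.8 CPM, the 10 neutrophil genes to 208 and 120, and the 16 genes of dividing cells to 775 and 547, while the 22 dissociation genes stood at 6243 and 7010. The part of each in the result was not tested beyond the following values. Among the 157 control and 307 creatine monocytes without a C1q UMI, Arg1 stood at 140 and 2.44 CPM, Spp1 at 244 and 17.8, Mrc1 at 154 and 32.4 and Stab1 at 45.6 and 9.77. Mmp12 stood closer there, at 24.7 and 15.7 CPM (-0.65, -1.33 to 0.04), and Apoe, at 3268 and 2446 (-0.42), no longer passed 1.5-fold. Among the 70 and 50 with at least 2 C1q UMIs, Arg1 stood at 553 and 131 CPM (-2.08) and Spp1 at 276 and 21.8 (-3.66). With at least 4 UMIs of the classical genes and none of the nonclassical ones, the 286 and 327 cells left gave ratios of -3.52 for Arg1 and -1.99 for Mrc1.

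**Figure D4:**
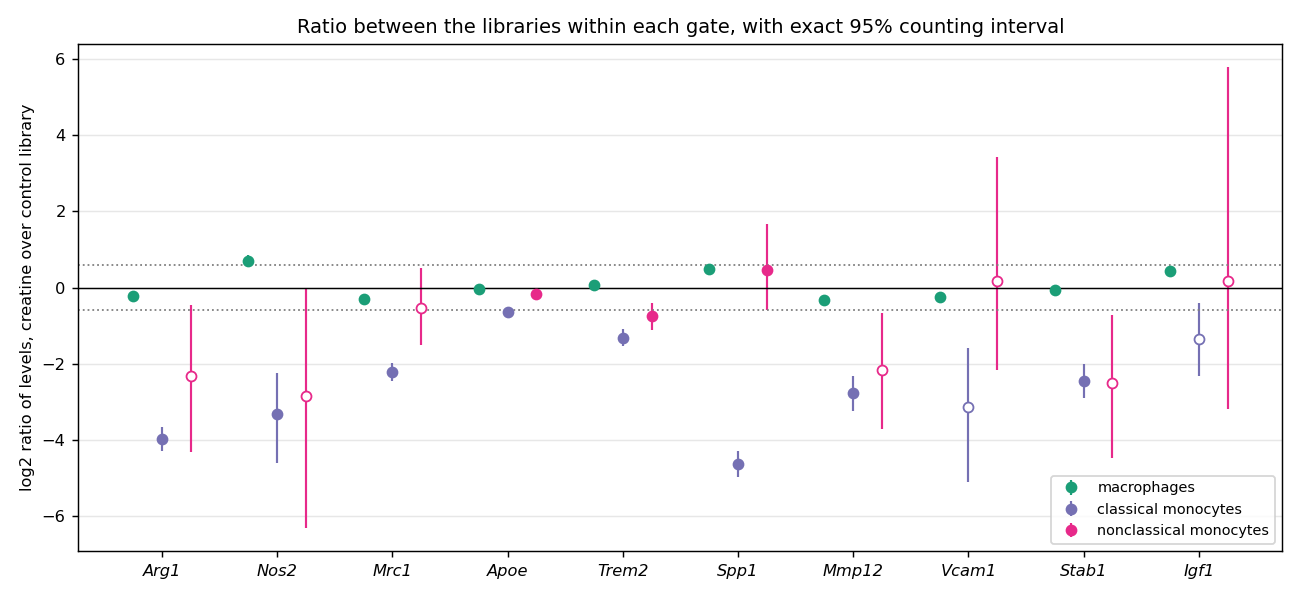
Log2 ratio of creatine over control level for each gene in macrophages (green), classical monocytes (purple) and nonclassical monocytes (pink), with exact 95% counting intervals; open points have under 50 UMIs and dotted lines mark 1.5-fold. The purple points reach -4.62 (Spp1) and -3.96 (Arg1), while the green points lie between -0.32 and 0.71.

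The promoters of the members with the largest differences in classical monocytes are shown because these genes were lower together in that gate. Spp1, Mrc1, Mmp12 and Stab1 are those at least 4-fold lower with a promoter in the RefSeq table used (build GRCm38.p6), where 7 of the 10 members matched by symbol. Arg1, Nos2 and Vcam1 did not match. Where a gene had several windows, the one nearest the annotated gene start was taken. The 250 bases before the start site are given 5′ to 3′ on the strand of the gene. They lie at chr5:104434861-104435110 (plus strand, Spp1), chr2:14229164-14229413 (plus, Mrc1), chr9:7344147-7344396 (plus, Mmp12) and chr14:31168642-31168891 (minus, Stab1). Capitals mark GAGGAA or its complement TTCCTC, the core of sites for PU.1, the factor that myeloid cells depend on.
Spp1: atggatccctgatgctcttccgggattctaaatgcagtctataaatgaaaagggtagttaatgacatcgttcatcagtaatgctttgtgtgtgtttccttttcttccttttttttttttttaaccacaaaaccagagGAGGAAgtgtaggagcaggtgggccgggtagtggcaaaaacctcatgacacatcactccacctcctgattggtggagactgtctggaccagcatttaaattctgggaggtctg
Mrc1: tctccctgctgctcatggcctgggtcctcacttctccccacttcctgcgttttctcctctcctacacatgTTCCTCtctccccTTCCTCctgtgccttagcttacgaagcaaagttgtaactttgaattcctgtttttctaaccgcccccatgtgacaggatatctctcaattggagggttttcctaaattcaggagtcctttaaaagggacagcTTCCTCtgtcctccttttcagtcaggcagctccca
Mmp12: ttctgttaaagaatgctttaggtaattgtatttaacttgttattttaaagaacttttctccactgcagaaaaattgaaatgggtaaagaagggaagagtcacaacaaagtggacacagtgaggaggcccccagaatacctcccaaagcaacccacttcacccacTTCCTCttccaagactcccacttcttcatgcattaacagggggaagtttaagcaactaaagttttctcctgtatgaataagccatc
Stab1: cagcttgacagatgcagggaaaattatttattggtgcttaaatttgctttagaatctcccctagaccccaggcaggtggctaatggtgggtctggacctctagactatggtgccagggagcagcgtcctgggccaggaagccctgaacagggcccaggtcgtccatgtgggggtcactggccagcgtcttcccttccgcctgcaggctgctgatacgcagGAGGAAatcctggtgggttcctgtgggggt
All 7 member windows held this core on either strand, 3 times in Mrc1 and once in the others, and 23.3% of all 32851 windows of this length held it. It began 113 bases before the start in Spp1, 86 in Mmp12 and 30 in Stab1. The letters TGANTCA, a looser form of the AP-1 site with any base at N, occurred in the windows of Trem2 and Igf1 (6.75% of all windows). Both matches read TGAATCA. The letters of the interferon response element ISRE occurred in the window of Spp1 (2.98%). The windows held no TTCNNNGAA of STAT factors, no ACGTG of hypoxia-inducible factors and no TCATGTG of the MITF family (7.02%, 16.6% and 3.25% of all windows). All were searched on both strands. GAGGAA can share its last letters with TTCNNNGAA and ISRE, and end letters with others. A match describes letters only.

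In nonclassical monocytes only Apoe, Trem2 and Spp1 reached 50 UMIs. Trem2 stood at 107 CPM (86.9 to 129) in the control and 63.3 (55.2 to 72.4) under creatine, 1.68-fold lower. Where 5.49% of the 6992 genes measured were lower and 8.27% were higher, 1 of these 3 members was lower and 0 were higher. Apoe stood at 3705 and 3335 CPM (-0.15, -0.21 to -0.10). Spp1 stood at 9.40 and 12.9 CPM, from 9 and 44 UMIs, below the 88.1 and 182 CPM of T cells. The other 7 members had between 5 and 45 UMIs over both libraries, and none stood above 13.6 CPM.

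Pooling the gates gave other ratios than the gates did. Over macrophages and monocytes together, Arg1 stood at 253 and 122 CPM (-1.05), Mrc1 at 602 and 323 (-0.90), Mmp12 at 266 and 137 (-0.95), Vcam1 at 199.5 and 111 (-0.84) and Stab1 at 269 and 168 (-0.68). In macrophages alone the ratios of these 5 genes lay between -0.32 and -0.06. Nos2 stood at 40.9 and 41.7 CPM in the pool (0.03), against 0.71 in macrophages and -3.32 in classical monocytes. Spp1, at -0.40 in the pool, was 0.48 in macrophages and -4.62 in classical monocytes. Macrophages made up a smaller share of the pooled cells in the creatine library.

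Inflammatory genes around the members were higher more often than lower in the creatine library in each gate. The counts of this and the following lists are to be read beside the shares of all genes measured. These were 2.65% higher and 4.24% lower in macrophages, 9.16% and 8.76% in classical and 8.27% and 5.49% in nonclassical monocytes. Of 22 inflammatory genes measured in macrophages, 12 were higher and 0 were lower in the creatine library. Their log2 ratios had a median of 0.69 (0.68 without Nos2, beside -0.02 for all genes). Cxcl10, a chemokine that draws T cells, stood at 258 and 839 CPM. Gbp5 and Gbp2, GTPases that interferon induces, stood at 47.9 and 143 and at 343 and 809 CPM, and Acod1, which makes itaconate, at 51.1 and 146. In classical monocytes 9 of 21 were higher and 2 were lower, with a median of 0.29. The 2 were Nos2 and, chosen after its value was seen, Fpr2 (62.7 and 32.1 CPM). In nonclassical monocytes 13 of 17 were higher and 0 were lower, with a median of 1.07. Cxcl10 was higher in all 3 gates, at 515 and 1337 CPM in classical and 172 and 670 CPM in nonclassical monocytes. Nos2 thus stood with the list in macrophages. In classical monocytes it stood against the list, but there the UMI filter nearly fixed its call as lower (55 and 8 UMIs).

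The alternative activation genes held both directions in macrophages. Of 21 measured, 5 were lower and 2 were higher, with a median of -0.22. Mgl2, a lectin, stood at 56.2 and 11.5 CPM, the hemoglobin scavenger receptor Cd163 at 7.16 and 1.68, and the factors Irf4 and Klf4 at 3.95 and 2.23 and at 83.3 and 48.3. Cd163 and Irf4 passed the UMI filter only through the control library, which favors a call as lower. Tgm2, a transglutaminase, stood at 107 and 199 CPM and Pdcd1lg2, a ligand of PD-1, at 8.64 and 19.0. In classical monocytes 10 of 18 were lower and 1 was higher (Irf4, 10.9 and 17.2 CPM), and the median was -0.72, or -0.61 without Arg1 and Mrc1. In that gate Irf4 passed the filter only through the creatine library. In nonclassical monocytes 2 of 10 were lower and 3 were higher.

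Of the lipid handling genes, those past 1.5-fold in classical monocytes were mostly lower in the creatine library. Of 37 measured in macrophages, 2 were higher, the liver X receptor Nr1h3 (42.3 and 76.6 CPM) and Mylip (13.02 and 19.9 CPM), which degrades the LDL receptor, and 0 were lower, with a median of 0.05. Of all genes measured in macrophages, 2.65% were higher and 4.24% lower. In classical monocytes 18 of 37 were lower and 3 were higher, with a median of -0.57 (-0.49 without Apoe and Trem2). Among them, chosen after their values were seen, Fabp5, which carries fatty acids, stood at 1760 and 383 CPM and Plin2, which coats lipid droplets, at 406 and 161. In macrophages these stood at 3269 and 4875 and at 496 and 422 CPM. In nonclassical monocytes 5 of 34 were lower and 5 were higher, with a median of -0.14.

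The matrix and vessel genes held only lower members in macrophages, 6 of 25, with a median of -0.26. Thbs1 (thrombospondin) stood at 85.1 and 27.4 CPM, Fn1 (fibronectin) at 116 and 51.7, Mmp8, a collagenase, at 8.02 and 3.91 and the protease inhibitor Timp1 at 4.94 and 2.68. Mmp8 and Timp1 passed the UMI filter only through the control library, which favors a call as lower. In classical monocytes 14 of 23 were lower and 2 were higher, and Fn1 was one of the higher, at 536 and 1029 CPM. In nonclassical monocytes 3 of 15 were lower and 1 was higher. Of 25 resident-like genes in macrophages 3 were lower and 2 were higher, namely Slco2b1 (7.72 and 2.01 CPM), Cd163, F13a1 (199 and 99.5), Ccl8 (2109 and 3896) and Ccl7 (574 and 879). Slco2b1 and Cd163 likewise passed the filter only through the control library. In classical monocytes 12 of 17 were lower and 0 were higher, and in nonclassical monocytes 0 of 10 were lower and 3 were higher.

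The genes of arginine metabolism and the partners of the members were followed last. Of 17 genes of arginine metabolism in macrophages, Nos2 was higher and Arg2, the mitochondrial arginase, was lower, at 2.84 and 0.670 CPM from 46 and 6 UMIs. Arg2 thus passed the UMI filter mostly through the control library. In classical monocytes 4 of 15 were lower, Arg1, Nos2 and, chosen after their values were seen, Odc1 and Srm of polyamine synthesis (61.2 and 33.8, and 30.0 and 16.6 CPM). Nos2 passed the filter there only through the control library. Of 19 receptors and adaptors of the members, 1 was lower in macrophages, the insulin receptor substrate Irs2 (28.7 and 18.9 CPM), where 4.24% of all genes were lower. In classical monocytes 3 of 16 were higher and 2 were lower, and the chain Itga4 of the Vcam1 receptor VLA-4, also chosen after its value was seen, stood at 207 and 454 CPM. In nonclassical monocytes 2 of 12 genes of arginine metabolism were higher and 2 were lower, and 1 of 15 partners was higher and 1 was lower. Of all genes measured there, 8.27% were higher and 5.49% lower.

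Most pairs of members met in single macrophages more often than the product of their shares, by a small margin, in both libraries. Each macrophage was thinned to 4000 UMIs, which left 856 control and 340 creatine cells and 86 and 17 out. Of 45 pairs, 39 in each library occurred in the same cell more often than the product of their shares, and the ratio of the observed to the product had a median of 1.10 and 1.16. The cells share their library, and these ratios carry no test. Pairs of other genes were not counted, so no share over all pairs stands beside these numbers. Nos2 and Mmp12 stood out in the control, together in 22 of 856 cells (2.57%, 1.62 to 3.87) where the product gave 6.18 cells. They met in 6 of 340 creatine cells where it gave 2.74. There the interval of 0.65% to 3.80% held the 0.80% of the product. Arg1 and Mmp12 met in 48 control cells against 20.7 from the product and in 11 creatine cells against 5.197. Arg1 and Spp1 met in 69 cells against 38.9 and in 35 against 19.3.

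Arg1 and Nos2, the textbook opposites, did not meet less often than the product of their shares. Arg1 was also found in 17 of the 41 control and 8 of the 30 creatine macrophages with a Nos2 UMI. The product gave 6.56 and 5.03 such cells. In the creatine library the interval of 1.02% to 4.58% held the 1.48% of the product. Nos2 and Mrc1 met in 27 cells against 30.7 in the control and in 16 against 19.5 in the creatine library. The lowest ratio in the control was that of Arg1 and Vcam1, in 32 cells against 47.1, and in the creatine library 15 against 17.6. Vcam1 instead met Igf1 in 102 cells against 56.3 in the control and in 40 against 25.6 in the creatine library, and Stab1 in 197 against 129.5 and 52 against 43.5. A macrophage held a median of 4 of the 10 members in both libraries, and 41.4% and 38.5% of macrophages held at least 5. In classical monocytes the median was 2 in the control and 1 under creatine, and 5.41% and 0.442% held at least 5.

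**Figure D5:**
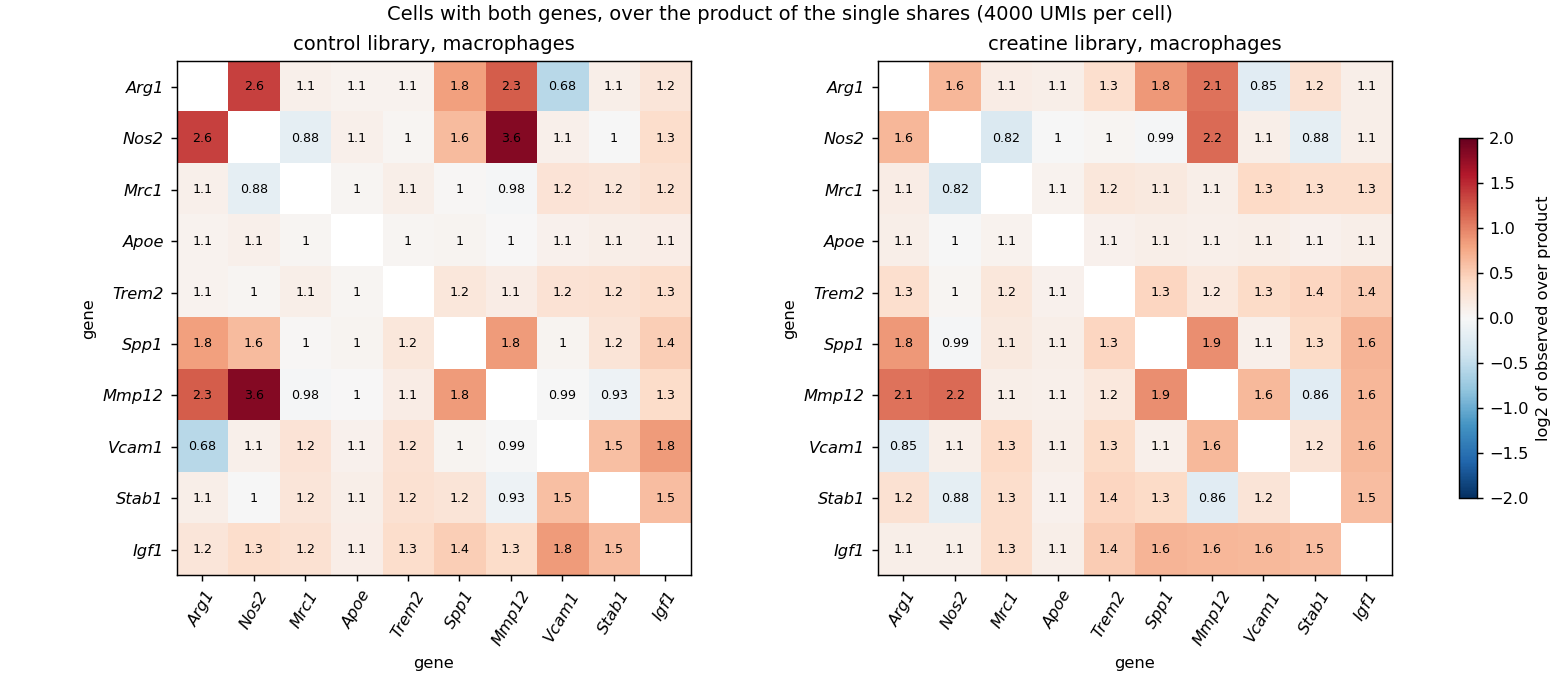
Ratio of the share of macrophages with a UMI of both genes to the product of the single shares, with each cell thinned to 4000 UMIs, in the control (left, 856 cells) and the creatine library (right, 340 cells); red is above and blue is below the product, on a log2 color scale. The pairs among Nos2, Arg1, Mmp12 and Spp1 lie above the product, except Nos2 with Spp1 in the creatine library at 0.986, as do those among Vcam1, Stab1 and Igf1, with Arg1 and Vcam1 below the product at 0.680 and 0.852.

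Correlation across macrophages named the genes most like each member. Pearson's r of ln(1 + UMIs per 10000) was taken over 942 control and 357 creatine cells against 8500 genes with a UMI in at least 10% of macrophages of both libraries, and depth is shared by all genes of a cell. Genes were ranked by the mean r of both libraries. Nos2 was in too few cells to be ranked. Arg1 was most like Ctsl (r = 0.42 and 0.46), Emp1 and Adam8, and Spp1 was most like Emp1 (0.33 and 0.41), Ctsl and Cd9 (0.28 and 0.41). Mmp12 was most like Atp6v0d2 (0.48 and 0.54), Hilpda and Il7r. Mrc1 was most like Dab2 (0.47 and 0.72), Selenop and the member Stab1 (0.51 and 0.62). Stab1 was most like Gas6 (0.55 and 0.64), Ccl8 and Itsn1, Vcam1 most like Ccl8 (0.57 and 0.50), Hpgds and Ctsd, and Igf1 most like Serpinb6a (0.50 and 0.63), Timp2 and Ccl8. Trem2 was most like Cd63 (0.52 and 0.70), Timp2 and Ctsb, and Apoe most like Selenop (0.52 and 0.49), Ms4a7 and Ctsb. Ccl8 thus stood among the 3 nearest genes of Vcam1, Stab1 and Igf1.

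Spp1 was the member with the largest share of its UMIs in T and NK cells. T cells held 24.7% of its UMIs in the control and 47.0% under creatine, at 88.1 and 182 CPM, and NK cells held 2.29% and 15.03%, at 112 and 305 CPM. The other 9 members stood in T cells at between 0.809 CPM (Igf1) and 64.1 CPM (Apoe) in the control and at lower levels in the creatine library. In the control, T cells held 3484 UMIs of Spp1 and 382 of Mrc1, whereas macrophages held 5307 and 11635. Under creatine the counts were 6893 and 135 in T cells and 4089 and 5270 in macrophages. The origin of the Spp1 UMIs in T cells was not tested. The share of T cells with an Spp1 UMI was 19.6% and 20.3%, so that the level differed between the libraries and the share of cells did not to the same degree. Over all cells Spp1 stood at 178 and 203 CPM (0.19), the only member that was higher under creatine, with Nos2 at 14.2 and 13.04 (-0.12, -0.24 to 0.01) and Arg1 at 93.9 and 32.3 (-1.54).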

How the data were processed

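Per the labels, droplet scRNA-seq was run on 1 control and 1 creatine library of sorted TIIs. The authors deposited raw UMI counts per gene and cell from Cell Ranger 3.0.2 (mm10), without normalization. Lists of genes and barcodes came with each matrix. Control and creatine libraries held 80434564 and 72898494 UMIs in 7649 and 6503 cells. Cells with under 300 UMIs, under 100 genes or over 25% of UMIs from mitochondrial genes were left out.

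Gates were set by marker UMIs. Macrophages and monocytes also had at most 2 UMIs each of lymphoid (Cd3d, Cd3e, Cd3g, Cd79a, Ncr1) and dendritic genes (Flt3, Xcr1, Clec9a, Siglech, Ccr7), monocytes at least 10 Lyz2 UMIs per 10000, classical monocytes at least 2 UMIs of the classical and fewer than 2 of the nonclassical genes, and nonclassical monocytes at least 2 of the latter. T cells had at least 3 UMIs of the Cd3 genes. No doublet caller was run. The exclusion genes removed mixed cells of those types only, and of 1645 control and 1295 creatine cells that had Csf1r and passed the exclusion, 213 and 96 fell in none of the 3 gates.

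UMIs were summed per gate and library and given as CPM. A difference in CPM of 1.5-fold with at least 50 UMIs was the rule of size. The members and all lists were chosen with earlier results of these data known. Named genes were the 10 members, in each list up to 4 with the largest rise and 4 with the largest fall in macrophages, up to 3 genes most like a member with a mean r over both libraries of at least 0.3, and markers. Genes outside this rule are marked as such in the text. Alternatives changed the gates, filters, scaling, weights of cells and thinning. Those without C1q UMIs in monocytes, with T cell CPM taken off (not for Spp1, nor where the T cell CPM was the higher), without shared barcodes, by C1q UMI class and with pooled gates were chosen after seeing the data. Gene positions used GENCODE M21 (GRCm38), which held 30934 of the 31053 gene identifiers. Calculations used Python 3.11.15, numpy 2.4.6, pandas 2.3.3, scipy 1.17.1, matplotlib 3.10.9, R 4.3.3 and edgeR 4.0.16 (TMM only), and were tested on simulated data. The simulated counts were independent, so the test of the intervals did not cover UMIs clumped in few cells.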

Additional observations from a re-analysis of the deposited data

Results flagged for a closer look

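Some members stood on opposite sides of 0 in macrophages and in monocytes, with counting intervals off 0 in both. With 1 library per group, the differences between the cell types were not tested. For Nos2, the log2 ratio of 0.71 in macrophages stood beside -3.32 in classical and -2.83 in nonclassical monocytes, the last from 4 and 2 UMIs (interval -6.30 to -0.03). These UMIs lay in 1 control and 2 creatine cells, and the interval takes each UMI as independent. For Spp1, 0.48 in macrophages stood beside -4.62 in classical monocytes. For Trem2, 0.08 in macrophages stood beside -1.31 in classical and -0.75 in nonclassical monocytes, although the macrophage value was -0.16 with equal weights of 3 C1q classes. For Igf1, 0.44 in macrophages stood beside -1.34 in classical monocytes, from 28 and 16 UMIs. Without C1q UMIs the latter was -0.29, with an interval of -1.64 to 1.17 that includes 0.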

How the results depend on the processing

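Each group is 1 library, so no library could be left out, and the intervals cover counting error only. No paired analysis was possible because each group holds 1 library. In classical monocytes, all 103 values of the 8 measured members under the alternatives kept their direction, as did all 38 values of the 3 measured members in nonclassical monocytes. In macrophages 123 of 129 did. The exceptions were Arg1 (0.57), Mmp12 (0.44), Apoe (0.07) and Stab1 (0.00) without UMIs of Ly6c2, Vcan, Ace, Adgre4 and Treml4, and Trem2 with the same weight for each cell (-0.02) and with equal weights of C1q classes (-0.16). TMM scaling moved the ratios by at most 0.04.

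In macrophages the number of members lower, 0 as reported, was 2 without UMIs of the exclusion genes, 1 with the same weight for each cell, 1 without the 1% of cells highest in the member, and 1 at the smaller of the alternative folds. The number higher, 1 as reported, was 3 at that smaller fold and 0 at a fold of 2. Of all genes in macrophages, 8.89% were higher and 12% lower at the smaller fold, and 0.759% and 1.11% at a fold of 2. In nonclassical monocytes 1 was higher at the smaller fold and 0 were lower at a fold of 2, where 19.2% of all genes were higher at the former and 0.772% lower at the latter. In classical monocytes 8 were lower as reported, 7 of 7 measured without UMIs of the exclusion genes, without the 5% deepest cells and without the 1% of cells highest in the member (Nos2 fell under 50 UMIs in each), 7 of 8 with C1q bounds of 20 and 2 (Apoe 1.47-fold) and at a fold of 2, and 6 of 7 without C1q UMIs. Of all genes in classical monocytes, 2.87% were lower at a fold of 2. Without C1q UMIs, Arg1 and Stab1 passed 50 UMIs only through the control library. The cut of the 1% of cells took 91.1% of the Arg1 UMIs and 92.2% of the Mmp12 UMIs of creatine classical monocytes, so these calls rest mostly on the control. At a filter of 10 UMIs, 5.30% of genes were higher and 8.22% lower in macrophages, and 11.8% and 13.3% in classical monocytes. At 200 UMIs, 1.88% were higher and 1.81% lower in macrophages, and 8.53% and 5.89% in classical monocytes.

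At 10 UMIs, the genes lower in macrophages numbered 1 of the inflammatory, 8 of the alternative activation, 1 of the lipid, 5 of the resident-like and 2 of the partner list, with 2 of the matrix list higher. At 200 UMIs they numbered 2 of the alternative activation, 1 of the resident-like and 0 of the arginine list. In classical monocytes at 10 UMIs, 2 of the alternative activation and 1 of the resident-like list were higher. At 200 UMIs, 0 of the alternative activation and 1 of the lipid list were higher, and 1 of the inflammatory, 5 of the alternative activation, 2 of the arginine and 0 of the partner list were lower. How many genes of each list passed these filters was not counted, so these list counts carry no share. Depth limits the monocyte values of Vcam1 and Igf1, and most members in nonclassical monocytes. Of the 27 pairs of a member and a gene most like it (20 distinct genes), 23 were found again in cells with at least 4000 UMIs. Pairs above the product numbered 38 to 43 in the control and 34 to 44 in the creatine library under the alternatives.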
